A study of Bos taurus with 31 samples.

Results

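The 9 genes described here belong to the vitamin A (retinoid) pathway of the liver. They are RBP4, LRAT, RDH16, DHRS3, ALDH1A1, ALDH1A2, CYP26A1, RARB and BCO2, each found as 1 row by its symbol among the 24616 genes of the raw count table. Comparisons were run on 15916 genes, all 9 included, whose reads added up to 20 or more over the 31 cows. The genes were chosen with differences between the concentrate proportions in these data already known, so those differences are given as a description, without a test in support.

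The liver samples were puncture biopsies of lactating German Holstein cows, 1 library per cow. A 2-factorial feeding trial gave 4 groups. CONHC (8 cows) and CONLC (8 cows) received control rations with a high and a low concentrate feed proportion, and GLYHC (8 cows) and GLYLC (7 cows) received glyphosate-contaminated rations with a high and a low proportion. The contamination came from residues of the glyphosate formulation Roundup Record on peas, wheat grain and straw, and the control rations carried background traces. The low concentrate rations held more silage in place of concentrate, so concentrate proportion and forage share cannot be told apart. The cows differed as animals. The p-values of the group comparisons set each difference against the variation between cows, which with 1 library per cow includes technical variation.

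The liver is the main store of vitamin A. LRAT esterifies retinol for storage in stellate cells, and RBP4 carries retinol from the hepatocyte into the blood. Dehydrogenases such as RDH16 oxidise retinol to retinal, DHRS3 reduces retinal back to retinol, and the enzymes ALDH1A1 and ALDH1A2 oxidise retinal to retinoic acid. Retinoic acid acts through nuclear receptors such as RARB and is broken down by CYP26A1, whose own gene is known to be induced by retinoic acid. BCO2 cleaves carotenoids, the plant precursors and companions of vitamin A, at an off-centre bond.

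The libraries held 11675775 to 36675542 gene-assigned reads (median 19781078). Values below are library-size scaled read counts (CPM, with TMM factors), and differences are log2 fold changes with their standard error (SE) from edgeR's quasi-likelihood fit over all 15916 genes. A gene passed the test when its unadjusted p was below 0.05 and its p adjusted over all genes by the Benjamini-Hochberg method was below 0.1. The hepatocyte markers were high in every cow, with ALB at 42900 CPM or more. GLYLC cow 912 stood apart. Its summed level of 9 hepatocyte markers was 104480 CPM, against 121452 CPM or more in the other 30 cows. Its summed level of the 7 detected intestinal epithelium markers was 424 CPM, against at most 105 CPM elsewhere. Of these hepatocyte markers, 6 were at their lowest of all cows in cow 912, among them ALB, whereas APOA1 (714 CPM against at most 632 CPM) and FGB (42252 CPM against at most 33433 CPM) were at their highest and APOB lay inside the range. Fold changes without this cow are given beside those that it moved most. In such bulk samples, fewer cells of a type and less RNA per cell cannot be told apart.

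Of the 9 genes, ALDH1A2 and CYP26A1 differed most between the concentrate proportions, and in opposite directions. ALDH1A2 was lower and CYP26A1 higher in the HC cows, in the CON as in the GLY cows. The fold changes of the other 7 genes over all cows lay between -0.22 for LRAT and 0.14 for RDH16.

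RBP4, the carrier of retinol in plasma (ENSBTAG00000000442), was among the steadiest of the 9. Its lowest, median and highest levels were 3242, 4070 and 4671 CPM in CONHC, and 2867, 4133 and 4840 CPM in CONLC. In GLYHC they were 3425, 4186 and 4577 CPM, and in GLYLC 2274, 4041 and 4347 CPM. All 4 groups overlapped, and GLYLC cow 912 was the lowest of all cows. Over all cows, HC differed from LC by 0.08 (SE 0.08), and by 0.04 without cow 912.

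LRAT, the retinol-esterifying enzyme (ENSBTAG00000017167), was a low-count gene here, with 32 to 149 raw reads per cow. The lowest, median and highest levels were 2.47, 3.27 and 5.07 CPM in CONHC and 2.96, 4.67 and 5.38 CPM in CONLC. They were 2.29, 4.03 and 5.49 CPM in GLYHC and 3.09, 4.39 and 6.32 CPM in GLYLC. The HC cows were lower on the median under both treatments, with wide overlap. HC differed from LC by -0.26 (SE 0.18) in CON cows, -0.17 (SE 0.19) in GLY cows and -0.22 (SE 0.13) over all cows. LRAT is made mainly by stellate cells. The summed level of 9 stellate cell markers had medians of 336, 355, 311 and 341 CPM in CONHC, CONLC, GLYHC and GLYLC, so it was also lower in the HC groups on the median, and its part in the result was not tested.

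The retinol and retinal converting enzymes RDH16 and DHRS3 differed little between concentrate proportions. RDH16 (ENSBTAG00000001392) ranged from 796 to 1118 CPM in CONHC around a median of 1035 CPM, and from 642 to 1280 CPM in CONLC around 924 CPM. The range was 802 to 1064 CPM in GLYHC around 885 CPM, and 404 to 1035 CPM in GLYLC around 841 CPM. The fold change of HC against LC was 0.14 (SE 0.10) over all cows and 0.08 without cow 912. For DHRS3 (ENSBTAG00000024493), the lowest, median and highest levels were 68.9, 86.1 and 113 CPM in CONHC, and 66.7, 84.4 and 98.4 CPM in CONLC. They were 85.6, 91.3 and 115 CPM in GLYHC, and 53.0, 93.02 and 100.2 CPM in GLYLC. The fold change of DHRS3 was 0.13 (SE 0.08) over all cows and 0.09 without GLYLC cow 102. In GLY cows it was 0.18 (SE 0.12), although the GLYLC median was the higher, and 0.09 without cow 102.

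The retinal dehydrogenases ALDH1A1 and ALDH1A2 did not move alike. ALDH1A1 (ENSBTAG00000008103) had a median of 3803 CPM in CONHC (2799 to 4829 CPM) and 4222 CPM in CONLC (3096 to 5375 CPM). In GLYHC the median was 3493 CPM (2698 to 4583 CPM). The 7 GLYLC cows had a median of 3541 CPM and were the most scattered, from 1100 CPM in cow 912 to 6912 CPM in cow 209. Over all cows, HC differed from LC by -0.11 (SE 0.14). This value rested on single GLYLC cows, with -0.18 without cow 912 and -0.004 without cow 209.

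ALDH1A2 (ENSBTAG00000010119) was the lowest-count member, with 15 to 136 raw reads per cow. In GLYHC its lowest, median and highest levels were 1.01, 1.64 and 2.01 CPM, and in GLYLC they were 2.04, 2.93 and 6.50 CPM. Every GLYHC cow was thus below every GLYLC cow. The gap was narrow, from 2.005 CPM in GLYHC cow 152 to 2.045 CPM in GLYLC cow 912, values that rest on 23 and 56 raw reads. Of all genes tested, 0.0691% had every GLYHC cow below every GLYLC cow. The fold change was -1.09 (SE 0.27).

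In the CON cows the ALDH1A2 groups overlapped. The lowest, median and highest levels were 0.825, 1.92 and 3.50 CPM in CONHC, and 1.38, 3.24 and 4.48 CPM in CONLC. Of the 8 CONLC cows, 7 lay above the CONHC median. The fold change was -0.60 (SE 0.27). Over all cows it was -0.84 (SE 0.19), and 14 of 15 LC cows lay above the median of the 16 HC cows. In order of their medians the groups ran GLYHC, CONHC, GLYLC and CONLC, and neither the 2 HC groups nor the 2 LC groups were separated from each other.

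Over all cows, ALDH1A2 was the only one of the 9 genes past the edgeR threshold in HC against LC. Of all genes tested, 1.45% passed it, 0.773% as lower in HC. None of the 9 passed in GLYHC against GLYLC, where the share of all genes was 0.201%, or in CONHC against CONLC, where it was 0%. In GLYHC against GLYLC, ALDH1A2 had an adjusted p of 0.1003 in edgeR, next to the threshold. DESeq2 put it past the threshold (adjusted p of 0.0390 on all cows). Over the 9 other settings described at the end, its adjusted p from edgeR or DESeq2 ran from 0.0236 to 0.409. With single cows left out, edgeR gave adjusted p-values from 0.0638 without GLYLC cow 209 to 0.257 without GLYLC cow 912. These counts are read no further, since the genes were chosen on these contrasts.

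Markers of other cell types were set beside ALDH1A2. GLYLC cow 544 had the highest ALDH1A2 level of all cows (6.50 CPM). It also had the highest summed level of 6 mesothelium markers, 20.7 CPM. This sum lay between 1.79 and 16.2 CPM in the other cows. In each of the other groups, the cow with the highest sum was not the cow with the highest ALDH1A2 level. CONLC cow 166 (sum of 16.2 CPM) had ALDH1A2 at 3.42 CPM, in a group range of 1.38 to 4.48 CPM. CONHC cow 133 (sum of 14.96 CPM) had ALDH1A2 at 2.19 CPM, in a group range of 0.825 to 3.50 CPM. GLYHC cow 37 (sum of 13.6 CPM) had ALDH1A2 at 1.98 CPM, just below the highest of its group, 2.01 CPM. In this list, WT1, LRRN4 and BNC1 were at 0 in 12, 12 and 16 of the 31 cows. The median sums were 4.15, 3.58, 3.58 and 6.32 CPM in CONHC, CONLC, GLYHC and GLYLC. CONLC cow 103 had the highest ALDH1A2 level among CONLC cows and the highest summed level of 9 fibroblast and smooth muscle markers (2325 CPM, with COL3A1 at 1008 CPM). That sum had medians of 258, 327, 219 and 320 CPM in the 4 groups. The part of these cell types in the result was not tested. With cows 103, 544 and 912 left out together, the fold change of HC against LC over all cows was -0.71 (SE 0.18). In GLYHC against GLYLC it was -0.95 (SE 0.27).

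CYP26A1, which breaks down retinoic acid (ENSBTAG00000021118), was higher with the high concentrate proportion. The lowest, median and highest levels were 25.4, 36.6 and 67.8 CPM in CONHC and 16.1, 25.5 and 35.9 CPM in CONLC. They were 23.3, 50.4 and 68.7 CPM in GLYHC, and 3.87, 24.8 and 70.3 CPM in GLYLC. Of the 16 HC cows, 15 lay above the LC median. All 8 CONLC cows lay below the CONHC median, but both comparisons overlapped, and in GLYLC the range of a single group spanned that of all others. The fold change of HC against LC was 0.70 (SE 0.35) in CON cows, 0.65 (SE 0.36) in GLY cows and 0.68 (SE 0.24) over all cows, where its adjusted p was 0.193 in edgeR. The scatter of GLYLC came from both ends. Without the lowest cow, 912, the fold change was 0.45 in GLY cows and 0.59 over all cows. Without the highest cow, 147, it was 0.99 in GLY cows and 0.83 over all cows. The latter was past the threshold, with an edgeR adjusted p of 0.0942. Of the 31 fits over all cows with a single cow left out, only this 1 passed, and the edgeR adjusted p ran up to 0.260. The summed level of 8 macrophage markers was also higher in HC on the median, at 1025 and 829.5 CPM in CONHC and CONLC and at 1025 and 795 CPM in GLYHC and GLYLC. Its ranges overlapped between the groups (531 to 1548 CPM in HC and 635 to 1247 CPM in LC), and its part in the results on concentrate proportion was not tested. For the 9 hepatocyte markers the median sum was 175891 and 158983 CPM in CONHC and CONLC, so higher in HC. In GLYHC and GLYLC it was 152807 and 171899 CPM, so lower in HC, and its part was not tested.

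The receptor RARB (ENSBTAG00000011518) was counted with 25 to 131 raw reads per cow and did not separate the groups. Its median was 2.74 CPM in CONHC (2.19 to 4.01 CPM), 2.85 CPM in CONLC (2.48 to 3.93 CPM), 3.25 CPM in GLYHC (1.92 to 5.77 CPM) and 2.68 CPM in GLYLC (1.53 to 3.77 CPM). The fold change of HC against LC was 0.09 (SE 0.14) over all cows and turned to -0.004 without GLYHC cow 37, which had the highest level. BCO2 (ENSBTAG00000034193) had the smallest spread of the 9, with a coefficient of variation of 12.8% over the 31 cows. Its median was 30.7 CPM in CONHC (22.7 to 32.3 CPM), 25.7 CPM in CONLC (23.3 to 34.9 CPM), 29.2 CPM in GLYHC (24.3 to 33.8 CPM) and 27.5 CPM in GLYLC (23.7 to 36.6 CPM). The fold change of HC against LC was 0.15 (SE 0.09) in CON cows and -0.001 (SE 0.10) in GLY cows.

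**Figure D1:**
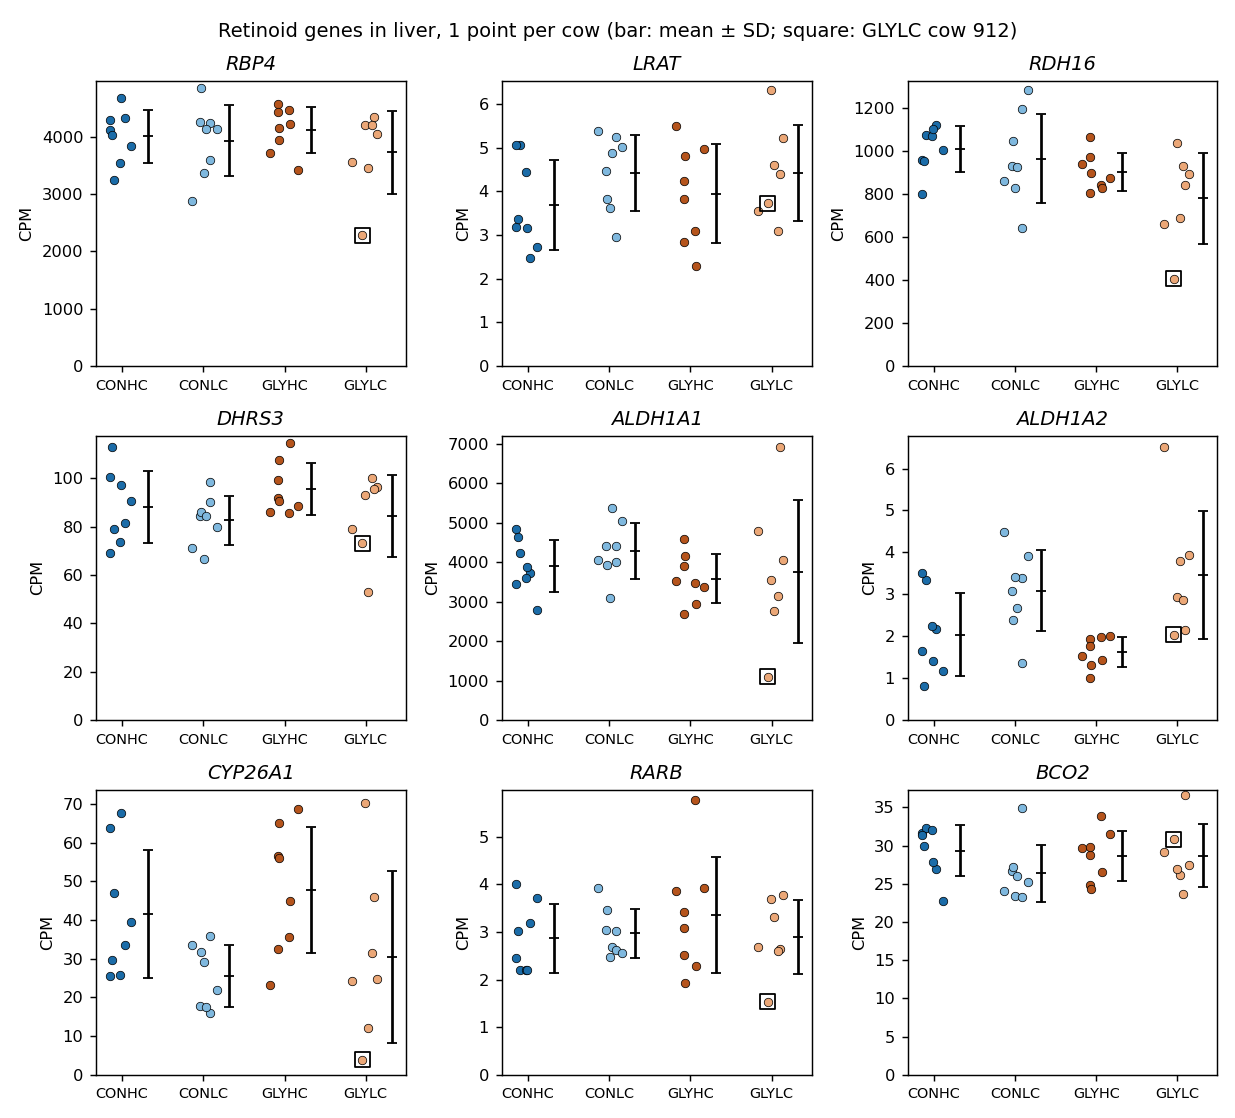
TMM-scaled CPM (vertical axes, linear, starting at 0) of the 9 genes in the 4 feeding groups, 1 point per cow, with the group mean ± SD beside the points and a square around GLYLC cow 912. The ALDH1A2 points of GLYHC (1.01 to 2.01 CPM) all lie below those of GLYLC (2.04 to 6.50 CPM), and cow 912 is the lowest point of all for RBP4, RDH16, ALDH1A1, CYP26A1 and RARB.

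Taking the 9 genes as a list, 6 were higher and 3 lower in HC against LC over all cows, with a median fold change of 0.08. Over all 15916 genes the median was -0.01 and 54.0% were lower. The coefficients of variation over the 31 cows ran from 12.8% for BCO2 and 13.9% for RBP4 to 48.6% for ALDH1A2 and 49.1% for CYP26A1. These values include the differences between groups. Within groups the order varied, and in GLYHC that of ALDH1A2 was 22.3%, below RARB with 36.3%.

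Glyphosate exposure was compared with the control within each concentrate proportion and over all cows. None of the 9 genes passed edgeR's test in GLYHC against CONHC, GLYLC against CONLC or GLY against CON over all cows. The shares of all genes that passed were 0%, 0.0628% and 0%. At an unadjusted p under 0.05, the counts among the 9 genes were 0, 1 and 1, against shares of 2.92%, 5.65% and 3.92% of all genes, and the gene was RDH16 both times. DESeq2 also passed none of the 9.

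RDH16 was lower in the GLY cows, with 13 of 15 GLY cows below the CON median. The fold change was -0.23 (SE 0.10) over all cows, -0.16 (SE 0.14) in HC cows and -0.30 (SE 0.14) in LC cows. These differences did not hold against the number of genes tested (edgeR adjusted p of 0.9999, 1 and 0.851). Without cow 912 the fold change was -0.17 over all cows and -0.19 in LC cows.

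For the other members the fold change of GLY against CON over all cows lay between -0.16 for ALDH1A1 and 0.23 for CYP26A1, each with a 95% interval that included 0. The interval of ALDH1A2 ran from -0.47 to 0.31, and that of CYP26A1 from -0.27 to 0.72, so that changes within these limits could not be told from none with these cows. The intervals were narrower for RBP4 (-0.18 to 0.15) and BCO2 (-0.09 to 0.18). The control cows of these comparisons are shared with the concentrate comparisons.

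Several of the GLYLC against CONLC values rested on cow 912. Without it, the fold change of ALDH1A1 moved from -0.19 to -0.02. RBP4 moved from -0.08 to 0.02, RARB from -0.04 to 0.08 and RDH16 from -0.30 to -0.19. The CYP26A1 value moved from 0.26 to 0.46 without cow 912, and to -0.09 without cow 147. ALDH1A2 moved from 0.16 to -0.07 without cow 544.

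The interaction asks whether the concentrate effect differed between GLY and CON cows. No member passed, nor did any of the 15916 genes (0% in edgeR, with 670, or 4.21%, at an unadjusted p under 0.05), and among the 9 genes there were none at that unadjusted level. For ALDH1A2 the difference between both concentrate effects was -0.49 (SE 0.38), with a 95% interval of -1.27 to 0.29 and an edgeR adjusted p of 0.999. The lower level in GLYHC and in CONHC was therefore not shown to differ in size. For CYP26A1 the interaction was -0.05 (SE 0.49), and it changed sign without cow 147 (0.30).

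**Figure D2:**
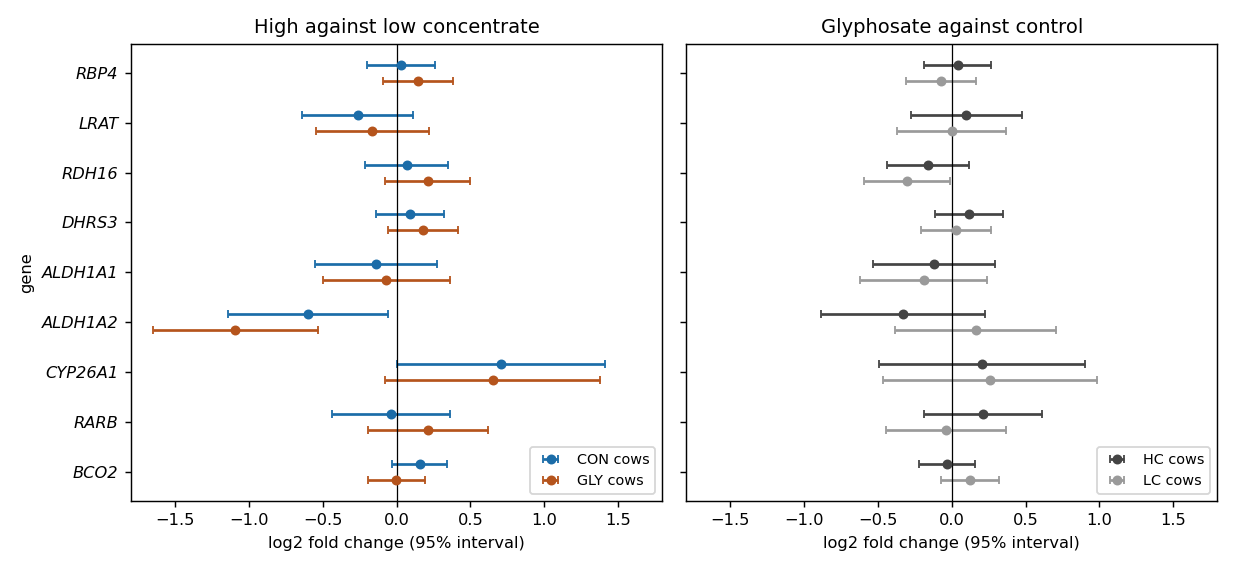
Log2 fold changes (horizontal axis) with 95% intervals for the 9 genes, on the left for HC against LC in CON and in GLY cows and on the right for GLY against CON in HC and in LC cows. On the left, ALDH1A2 lies at -0.60 and -1.09 and CYP26A1 at 0.70 and 0.65, and both intervals of CYP26A1 include 0. On the right the intervals include 0 except for RDH16 in LC cows (-0.30).

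Cow 912 was the lowest of the 31 cows for 5 of the 9 genes. Among 11620 genes with a median of at least 1 CPM in the other cows, it was the lowest for 15.4% and the highest for 14.8%. CYP26A1 was at 3.87 CPM in this cow, against a median of 33.0 CPM in the other 30. ALDH1A1 was at 1100 CPM against 3916 CPM, and RDH16 at 404 CPM against 928 CPM. RBP4 was at 2274 CPM against 4133 CPM, and RARB at 1.53 CPM against 3.02 CPM. The levels of LRAT, DHRS3, ALDH1A2 and BCO2 lay inside the range of the others. Of 35 other retinoid genes with a median of at least 1 CPM in the other cows, 8 (22.9%) were at their lowest and 3 (8.57%) at their highest in this cow. The highest were CD36 (50.5 CPM against a median of 23.2 CPM), DGAT1 (29.98 CPM against 19.6 CPM) and RDH13 (5.84 CPM against 4.37 CPM). The retinol dehydrogenases ADH4 (428 CPM against 1484 CPM) and RDH10 (17.7 CPM against 44.2 CPM) were among the lowest. TTR, the plasma partner of RBP4, was at 2416 CPM against 5308 CPM. The intestinal markers FABP2 and ALPI were at 206 and 20.2 CPM in cow 912 and at or below 0.163 CPM and at 0 in the others. VIL1, MUC13, LGALS4 and OLFM4 were also at their highest, but CDH17 was not (64.5 CPM, against at most 79.0 CPM). The smooth muscle gene MYH11 was at 737 CPM, against at most 60.8 CPM. TAGLN and CNN1 were also at their highest, whereas ACTA2, COL1A1, COL1A2, COL3A1, DCN and LUM of that list lay inside the range of the others. The part of these cells in the levels of the 9 genes was not tested.

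**Figure D3:**
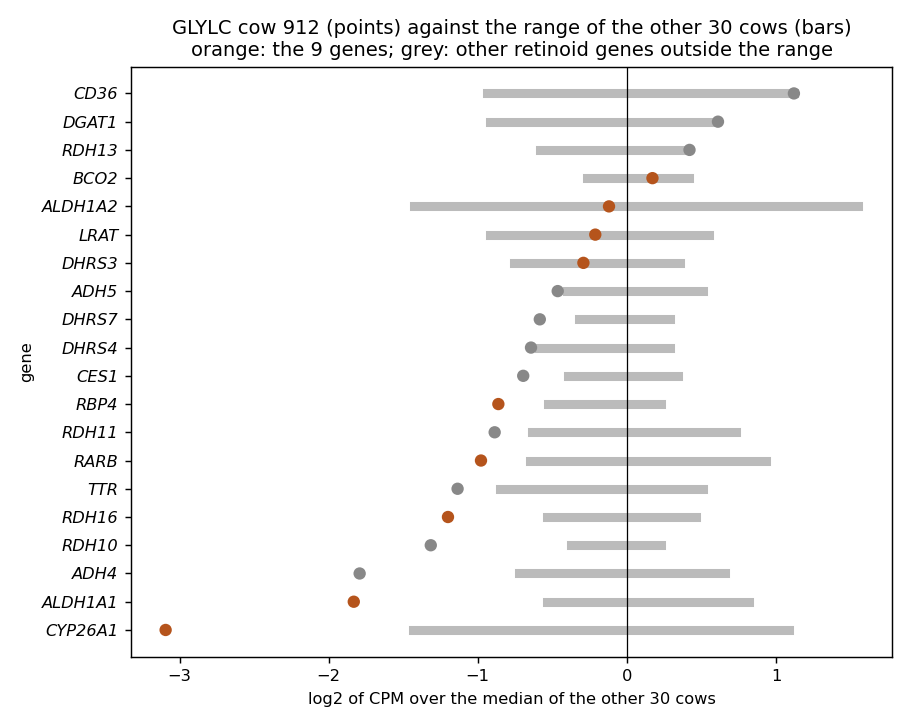
Log2 ratio of the CPM of GLYLC cow 912 to the median of the other 30 cows (horizontal axis; points), with the range of those 30 cows as grey bars, for the 9 genes (orange) and for other retinoid genes with a median of at least 1 CPM that lay outside the range (grey points). CYP26A1, ALDH1A1, RDH16, RARB and RBP4 lie left of their bars, while BCO2, ALDH1A2, LRAT and DHRS3 lie inside them.

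A wider list of retinoid genes was compared in the same fit. It covered binding and transport, esters, redox enzymes, carotenoid cleavage, retinal oxidation, retinoic acid breakdown, receptors and retinoic acid induced genes, and 46 of its 52 rows had enough reads. In HC against LC over all cows, 17 were higher and 29 lower, with a median fold change of -0.05. Of these, 0 passed edgeR's test as higher and 1 as lower. In GLYHC against GLYLC 2 passed as lower, and in GLYLC against CONLC 1 passed as higher.

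The genes that passed were BCO1, which cleaves beta-carotene to retinal, and RBP2, the retinol carrier of the intestinal epithelium. BCO1 passed in all 3 comparisons and RBP2 in GLYHC against GLYLC, and both rested on cow 912. BCO1 was at 46.8 CPM in this cow and at most 0.110 CPM in the others. RBP2 was at 90.5 CPM, against at most 2.80 CPM. Without cow 912, BCO1 had too few reads to be tested and RBP2 had a fold change of -0.48 (SE 0.47) in GLYHC against GLYLC and -0.12 (SE 0.32) in HC against LC over all cows. With this cow left out, 0.863% of all genes passed in HC against LC, and the fold change of ALDH1A2 there was -0.88.

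None of the other genes of the wider list passed. Those with the smallest p in HC against LC over all cows were RARRES1 (-0.41, SE 0.14), HSD17B6 (0.18, SE 0.07), ADH5 (-0.18, SE 0.08), TGM2 (0.70, SE 0.31), RXRB (-0.09, SE 0.04) and SCARB1 (-0.15, SE 0.07). Then followed ADH4 (0.23, SE 0.14), RARA (0.12, SE 0.07) and CES1 (-0.13, SE 0.09). TGM2, a transglutaminase that retinoic acid can induce, had its median at 45.7 CPM in HC and 18.8 CPM in LC, with overlap. RARRES1, another retinoic acid responsive gene, had its median at 39.4 CPM in HC and 54.2 CPM in LC. The medians of TGM2 and RARRES1 thus lay on opposite sides.

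In GLY against CON over all cows the smallest p-values of the wider list, after BCO1, belonged to RDH11, RARA, ADH6, RBP2 and DHRS7. RDH11, a retinal reductase, had a median of 16.03 CPM in GLY and 20.1 CPM in CON, with a fold change of -0.40 (SE 0.11) and an edgeR adjusted p of 0.590. Like RDH16 it was lower under both concentrate proportions, with -0.34 (SE 0.15) in HC and -0.46 (SE 0.16) in LC cows, and -0.35 without cow 912 over all cows. For RARA the fold change was -0.14 (SE 0.07), for 1 of the 2 rows of ADH6 it was -0.64 (SE 0.34), and for DHRS7 it was -0.11 (SE 0.07). RBP2 was at 1.44 (SE 0.80), and at -0.61 (SE 0.32) without cow 912.

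The levels of the 9 genes were also compared with each other from cow to cow, after the group means were removed from log2 CPM. Of 36 pairs, none reached an adjusted p under 0.05 for Pearson's r or Spearman's rho by a permutation test within groups. The closest was RBP4 with DHRS3, with Pearson's r of 0.489 (permutation p of 0.0243, adjusted 0.234) and Spearman's rho of 0.584 (permutation p of 0.00144, adjusted 0.0518). With RLE in place of TMM scaling its rho was 0.608, with an adjusted permutation p of 0.0263, and without cow 912 rho was 0.463, with an adjusted permutation p of 0.225. Its r was 0.484 without the 2 cows farthest from the median and 0.507 without cow 912. RBP4 with RDH16 had r of 0.608 (permutation p of 0.0089, adjusted 0.234) and rho of 0.527 (permutation p of 0.00668, adjusted 0.120), with r of 0.373 without those 2 cows.

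Larger coefficients of ALDH1A1 rested on few cows. Its r was 0.613 with CYP26A1 (permutation p of 0.0259, adjusted 0.234; rho 0.346, permutation p of 0.0864, adjusted 0.292), 0.561 with RBP4 (permutation p of 0.0237, adjusted 0.234; rho 0.267, permutation p of 0.179, adjusted 0.486) and 0.560 with RDH16 (permutation p of 0.0354, adjusted 0.255; rho 0.365, permutation p of 0.0710, adjusted 0.292). Without the 2 cows farthest from the median these fell to 0.181, 0.141 and 0.220. ALDH1A2 with LRAT had r of 0.379 (permutation p of 0.0425, adjusted 0.255) and rho of 0.400 (permutation p of 0.0337, adjusted 0.292), and 0.312 without those 2 cows. Across these cows, ALDH1A2 and CYP26A1, whose levels differed most by feed, had r of 0.06. The r of ALDH1A1 with BCO2 rose from 0.280 to 0.568 without cow 912 (permutation p of 0.00291, adjusted 0.0558). Its rho was then 0.483 (permutation p of 0.0100, adjusted 0.225).

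**Figure D4:**
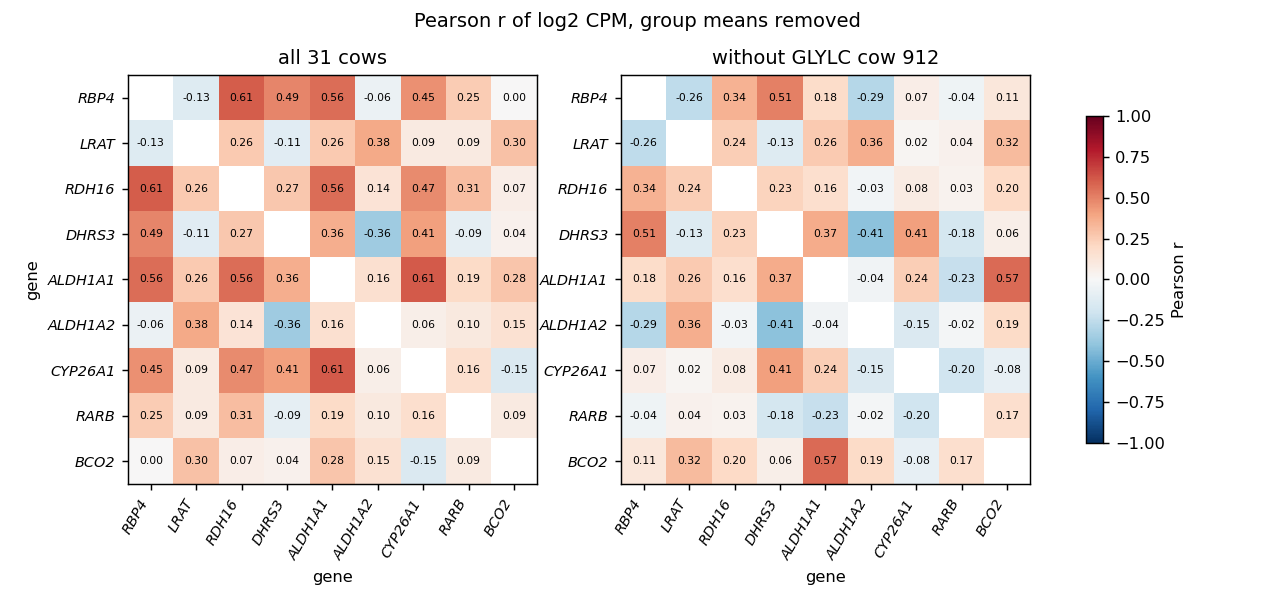
Pearson's r of log2 CPM between the 9 genes after removal of group means (colour scale from -1 to 1, value printed in each cell), for all 31 cows on the left and without GLYLC cow 912 on the right. The warm block of RBP4, RDH16, ALDH1A1 and CYP26A1 on the left, with ALDH1A1 and CYP26A1 at 0.61, is paler on the right, whereas RBP4 with DHRS3 stays near 0.5.

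Across the 31 cows, the genes whose levels were most like each member were listed from 11145 genes with a symbol and a mean of at least 1 CPM. These coefficients are a description, over libraries that share their groups and scaling. RBP4 was most like ACAA1 (r 0.937), SLC25A42 (0.871) and ALAD (0.851). LRAT was most like COLEC10 (0.849), COL4A5 (0.746) and VIPR1 (0.744). For RDH16 the genes were SNAI2 (0.809), CA3 (0.775) and XPC (0.772), and for DHRS3 they were RNF220 (0.827), MLYCD (0.760) and KEAP1 (0.758).

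ALDH1A1 was most like PGM1 (0.863), TKFC (0.845) and RDH10 (0.830), and without cow 912 these were 0.709, 0.713 and 0.628. ALDH1A2 was most like LTBP1 (0.750), NUMB (0.724) and PAM (0.693). The genes for CYP26A1 were SWAP70 (0.812), NINJ1 (0.758) and SIRT4 (0.747), which became 0.668, 0.584 and 0.661 without cow 912. For RARB they were SLC25A43 (0.766) and TBC1D31 (0.711), and for BCO2 ZNF19 (0.626), CCSAP (0.578) and LRRC8E (0.576). The coefficients of LRAT, ALDH1A2, DHRS3 and BCO2 moved little without cow 912, with COLEC10 at 0.853, LTBP1 at 0.754, RNF220 at 0.830 and ZNF19 at 0.638. Those of ALDH1A1, CYP26A1 and RDH16 fell, and for RDH16 they became 0.683 (SNAI2), 0.610 (CA3) and 0.624 (XPC). RBP4 was then at 0.907 with ACAA1 and 0.760 with ALAD, and RARB at 0.722 with SLC25A43.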

How the data were processed

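Liver mRNA (TruSeq stranded libraries, 1 per cow) of 31 cows was analysed. Per the submitters' processing notes and the study's methods, reads were checked with FastQC, trimmed with Trim Galore, aligned to UMD3.1 with HISAT2 2.1.0 and counted per gene with HTSeq 0.8.0. The deposited values used here are these raw counts, made by the authors. The strand setting of the counting was not given in the sources used here. In RefSeq ARS-UCD2.0 other annotated genes overlap ALDH1A2, DHRS3, RARB and BCO2, so reads there may be shared. The authors' normalized table was not used.

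Cows were grouped by the labels. Genes with at least 20 reads over all cows (15916 of 24616) were fitted with edgeR 4.0.16 (TMM, quasi-likelihood test) in R 4.3.3, with a 4-group model and, for the comparisons over all cows, a model with both factors. The study's own list was made with DESeq2, which (version 1.42.0) served as an alternative. Log2 CPM for correlations used a prior count of 2, and pairs were tested with 100000 permutations of cows within groups. The fit was also run on simulated counts, which held no unusual cow such as cow 912, and no statement here rests on that run. The 9 genes, the lists and the tests were chosen with earlier results of these data known. Of the wider list, named genes are those that passed in any comparison, the 12 with the smallest p in HC against LC and the 6 in GLY against CON over all cows. For likeness, the 3 genes with the highest r per member are named. Some genes that these rules select are not reported here. Leaving out cows 103, 544 and 912 together was chosen after seeing the data. The total of 11675775 to 36675542 reads per cow left few reads for ALDH1A2, LRAT and RARB, whose values carry more counting error.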

Additional observations from a re-analysis of the deposited data

Results flagged for a closer look

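In 3 of 36 groups of values (9 genes in 4 groups), a single cow lay farther from the others than Dixon's 95% limit allows. Chance alone gives about 1 in 20 groups. ALDH1A2 was at 6.50 CPM in GLYLC cow 544, above the next GLYLC cow at 3.93 CPM, with a gap of 0.577 of the group's range against a limit of 0.568. RBP4 was at 2274 CPM in GLYLC cow 912, below the next at 3454 CPM, with a gap of 0.569 of the range. BCO2 was at 34.9 CPM in CONLC cow 60, above the next at 27.3 CPM, with a gap of 0.660 against a limit of 0.526. Leaving cow 544 out moved the ALDH1A2 fold change of GLYHC against GLYLC from -1.09 to -0.87. Leaving cow 60 out moved that of BCO2 in CONHC against CONLC from 0.15 to 0.22. Cow 912 is described above.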

How the results depend on the processing

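No paired analysis was possible because the replicate numbers are cow numbers and no number occurs in more than 1 group. Besides leaving out single cows, 9 other settings gave 513 fold changes of the 9 genes, of which 498 kept direction and side of the threshold. The settings covered normalization, filters, DESeq2, a stricter limit on the adjusted p, only the groups compared, and removal of cows 103, 544 and 912. The stricter limit reused the main fit, so its fold changes could not change direction and no further gene could pass. The ALDH1A2 fold change of HC against LC, a contrast on which the gene was chosen, was -0.85 to -0.71 under the 7 settings run there. These include the stricter limit. With single cows left out it was -0.92 to -0.72. In GLYHC against GLYLC the count of the 9 genes that passed was 1 (ALDH1A2) with RLE scaling, with DESeq2 on all cows and with DESeq2 on only the 2 groups. It was 0 to 1 with single cows left out (1 without GLYHC cow 37, GLYLC cow 147 or 209, CONHC cow 208 or CONLC cow 260), and in HC against LC 1 to 2 (2 without GLYLC cow 147, with CYP26A1). The cause was not tested.

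Values near 0 changed sign. With upper-quartile scaling BCO2 was at 0.0024 in GLYHC against GLYLC and LRAT at -0.0056 in GLYLC against CONLC, and LRAT was at -0.0029 with only the 2 groups. Without cows 103, 544 and 912, RBP4 was at -0.028 in CONHC against CONLC, -0.0043 in HC against LC and 0.022 in GLY against CON. RARB was at 0.030 in CONHC against CONLC and 0.18 in GLYLC against CONLC, and BCO2 at 0.028 in GLYHC against GLYLC. The interaction was -0.039 for ALDH1A1, -0.043 for LRAT and -0.0053 for RDH16. With RLE scaling the rho of RBP4 with DHRS3 reached an adjusted permutation p of 0.0263, against 0.0518 with TMM. The r of ALDH1A1 with CYP26A1 was -0.088 in CON cows only, and that of ALDH1A2 with LRAT -0.026 in GLY cows only.

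With single cows left out, these ranges crossed 0. In GLYHC against GLYLC they were -0.23 to 0.15 for ALDH1A1 and -0.046 to 0.074 for BCO2. In GLYLC against CONLC they were -0.067 to 0.26 for ALDH1A2, -0.13 to 0.020 for RBP4, -0.10 to 0.069 for LRAT, -0.016 to 0.12 for DHRS3, -0.085 to 0.46 for CYP26A1 and -0.12 to 0.078 for RARB. In CONHC against CONLC they were -0.027 to 0.077 for RBP4 and -0.13 to 0.030 for RARB, and in HC against LC -0.0038 to 0.12 for RARB. In GLY against CON the range was -0.040 to 0.031 for RBP4. For the interaction it was -0.098 to 0.29 for ALDH1A1 and -0.25 to 0.30 for CYP26A1. The depth limits ALDH1A2, LRAT and RARB most, with as few as 15, 32 and 25 reads per cow.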
